A study of Mus musculus with 6 samples.

Results

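The genes described here encode the nuclear subunits of the mitochondrial respiratory chain and ATP synthase, complexes I to V, in the adult forebrain cortex of mice. Members were chosen by gene name alone: Ndufa, Ndufb, Ndufc, Ndufs and Ndufv names, Sdha to Sdhd, Uqcr names, Cox4 to Cox8 names, Atp5 names, Cyc1 and Cycs. This gave 118 probe sets of 91 genes, out of 19938 genes on the array, and the probe set with the highest mean over all arrays stood for each gene. By complex there were 36 genes named for complex I, 4 of complex II, 9 of complex III, 17 of complex IV and 17 of complex V, with Cycs (cytochrome c) and 7 complex I assembly factors with Ndufaf names beside them.

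Total RNA of 3 Dicer KO samples, CamKII-Cre/+;Dicer flox/flox, was hybridised to 1 Affymetrix array each, and so was that of 3 littermate control samples, all labelled as biological replicates. A control was either +/+;Dicer flox/flox, without Cre, or CamKII-Cre/+;Dicer flox/+, with Cre and a single floxed allele, and the labels do not say which animal had which genotype. Every animal thus carried at least 1 floxed Dicer allele, all were C57BL/6, and their age is given only as adult. The CamKII promoter is known to drive Cre mainly in excitatory forebrain neurons, and other cells of the dissected cortex, such as interneurons and glia, largely keep Dicer, the enzyme that makes mature microRNAs. The series' title ties this deletion to tau phosphorylation and the degeneration of neurons, and the comparison made here is which respiratory chain transcripts differ in such a cortex.

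Complexes I and II pass electrons from NADH and succinate to ubiquinone, complex III passes them on to cytochrome c, and complex IV passes them to oxygen. Complexes I, III and IV pump protons as they do so, and complex V, the ATP synthase, uses the proton gradient to make ATP. A few core subunits carry the flavins, iron-sulphur clusters, haems or active sites, and the many small accessory subunits hold the complexes together. Neurons depend on this pathway for the ATP spent on ion pumping and synaptic transmission. Mitochondrial DNA encodes a further set of core subunits, of which 0 of the 13 listed were matched to a probe set, and they were not analysed here.

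Values are log2 expression, and a difference is Dicer KO minus control with its moderated standard error (SE) from limma. The 6 arrays had medians between 7.13 and 7.22 over 35557 probe sets. The tissue label was checked against Slc17a7, the glutamate transporter of cortical excitatory neurons, which was high on every array, with 12.18, 12.27 and 12.06 in Dicer KO arrays against 12.37, 12.31 and 12.12 in control arrays. Dicer1 read 9.58, 9.68 and 9.46 in Dicer KO arrays against 9.17, 9.21 and 9.18 in controls, which is higher and not lower. Which exons the Dicer1 probe set covers is not known from the files, so whether it reads the deleted part is open and the labels remain unchecked by this gene. Groups are named here as labelled, and every direction given rests on those labels. In Dicer KO array 3 astrocyte markers stood 0.51 above the control mean, against 0.09 and 0.10 in the other Dicer KO arrays. In control array 1 olfactory bulb markers stood 0.64 above it. Y-linked Eif2s3y was high in Dicer KO arrays 1 and 3 and control array 2 and low in the other 3 arrays, so the sexes were unevenly spread over the groups.

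Transcripts of the respiratory chain were mostly lower in Dicer KO cortex, by small amounts. Of the 91 members, 74 had a difference below 0, or 81.3%, against 52.7% of all genes. The median difference was -0.18, with quartiles of -0.30 and -0.04, where the median over all genes was -0.01 with quartiles of -0.11 and 0.10. The lowest member stood at -0.61 and the highest at 0.15. Groups of arrays did not overlap for 32 members that were lower in Dicer KO (35.2%, against 11.0% of all genes) and for 3 that were higher, Cox4i1, Cox4i2 and Atp5a1, where 9.30% of all genes were.

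At an unadjusted p under 0.05, 30 members were lower in Dicer KO cortex, or 33.0%, against 7.39% of all genes. In the other direction there were 0 members, against 7.01% of all genes. After Benjamini-Hochberg adjustment over all 19938 genes, 1 member passed the threshold of 0.05 in limma, Cycs, which was lower; the share of all genes called was 0.191% in that direction and 0.0903% in the other. At an adjusted p under 0.1 there were 3 lower members, Cycs, Ndufb2 and Cox7b, against 0.898% of all genes, and 0 higher ones, against 0.707%. The count at an unadjusted p under 0.05 was 21 to 27 lower members when any single array was left out, and 0 were higher in each of these fits.

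Each array was also set against the mean of the controls, and the median over the 91 members was taken. These medians were -0.14, -0.12 and -0.18 in Dicer KO arrays 1 to 3, against 0.03, -0.06 and 0.03 in control arrays 1 to 3. All of the Dicer KO arrays lay below all of the control arrays, while the median over all genes stayed between -0.02 and 0.04 on every array. Fewer cells of a type and less RNA per cell cannot be told apart in such bulk samples. Without Dicer KO array 3 and control array 1, which stand apart by their markers, the median difference over the members was -0.11 against -0.02 over all genes, and 25 members (27.5%, against 8.52% of all genes) were lower at an unadjusted p under 0.05.

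**Figure D1:**
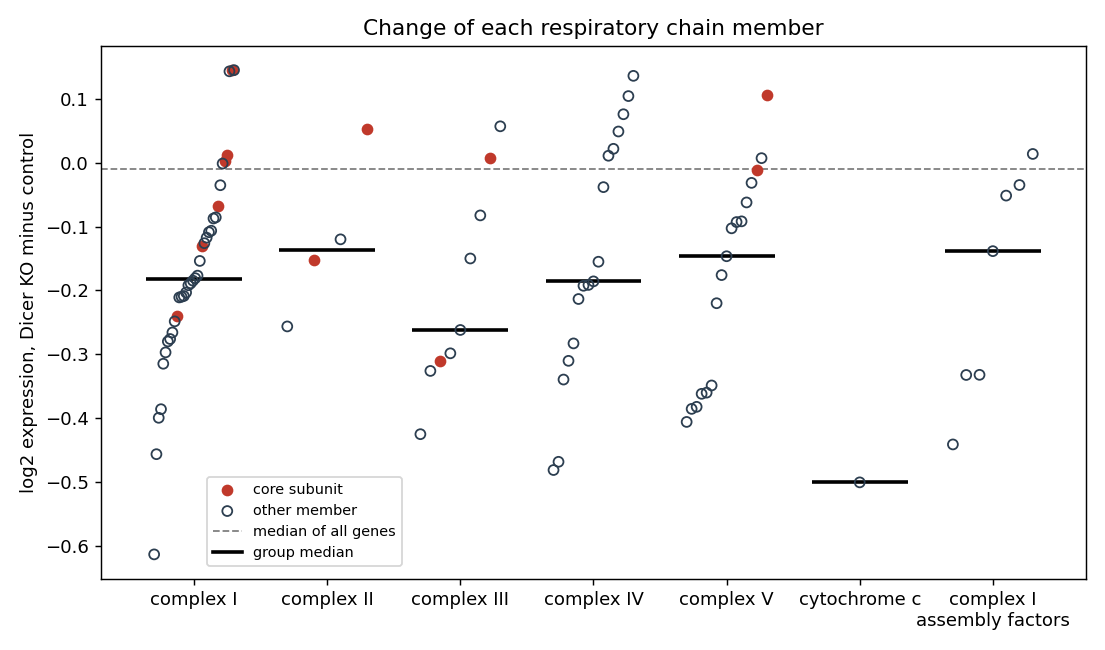
Difference in log2 expression, Dicer KO minus control, of each of the 91 members (points), sorted within complexes I to V, cytochrome c and complex I assembly factors. Filled points are core subunits, thick lines are group medians and the dashed line is the median of all genes at -0.01; most members lie below it, and 6 of the 12 core subunits lie below 0.

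By complex, the median difference was -0.18 over the 36 genes named for complex I, -0.14 over the 4 genes of complex II, -0.26 over the 9 of complex III, -0.19 over the 17 of complex IV and -0.15 over the 17 of complex V. All of these lie inside the quartiles of complex V, -0.36 and -0.06, while that of complex III lies below the quartiles of complex I, -0.25 and -0.09, and of complex II, -0.18 and -0.08. The differences between complexes were not tested. The members below 0 at an unadjusted p under 0.05 numbered 10 of 36, 0 of 4, 4 of 9, 5 of 17 and 7 of 17 in complexes I to V, where the share over all genes was 7.39%. There were 0 above 0 in each of them, where that share was 7.01%. The median of complex IV was -0.12 without Dicer KO array 3. That of complex II was -0.21 without control array 2 and -0.07 without control array 3.

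The array medians showed the same order of groups in most complexes. For complex III they were -0.21, -0.21 and -0.16 in Dicer KO arrays against 0.04, -0.07 and 0.04 in control arrays, and for complex I they were -0.12, -0.13 and -0.20 against 0.02, -0.07 and 0.04. For complex V they were -0.15, -0.17 and -0.13 in Dicer KO arrays against 0.08, -0.10 and 0.03 in control arrays. Complex IV had -0.18, -0.07 and -0.10 in Dicer KO arrays against 0.06, -0.06 and 0.02 in control arrays, where Dicer KO array 2 and control array 2 nearly met. Complex II, with its few genes, had -0.13, -0.09 and -0.17 in Dicer KO arrays against -0.04, -0.09 and 0.13 in control arrays, so its groups met.

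**Figure D2:**
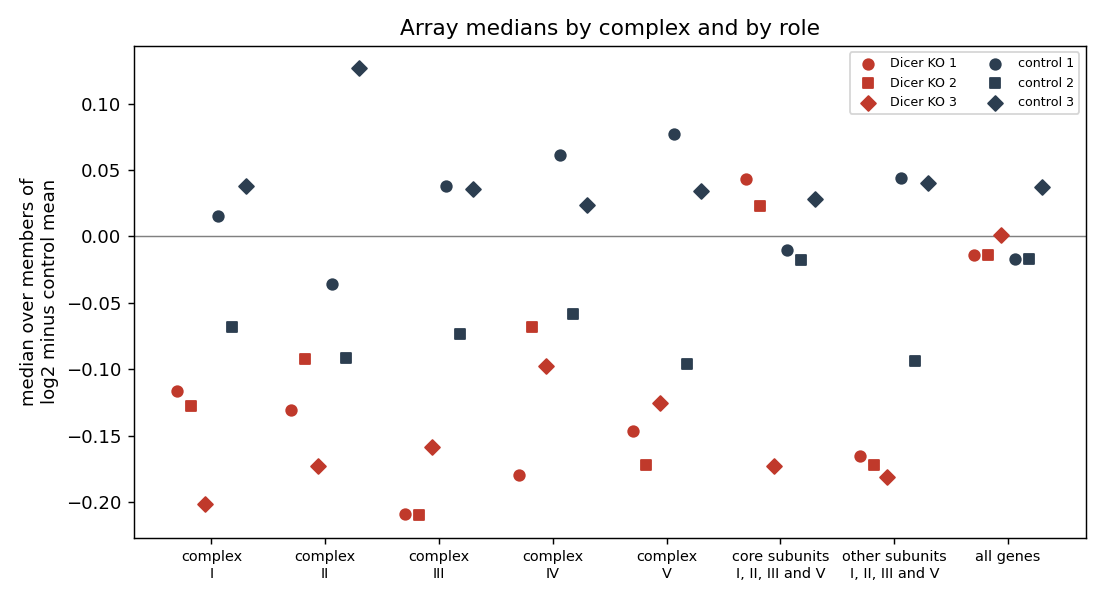
Median over the members of each group of log2 expression minus the control mean, for each array (Dicer KO arrays in red, control arrays in dark blue, symbols for array numbers 1 to 3). Dicer KO arrays lie lowest in complexes I, III, IV and V, the core subunits are low on Dicer KO array 3 only (-0.17), and all genes stay near 0.

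The promoters of the members were examined for motifs of factors known to act on nuclear respiratory genes. RefSeq promoters (GRCm38.p6, 250 bases before to 50 after the first listed start) were found for 74 of the 91 members. The NRF1 core CATGCGC, on either strand, was in 16 of these 74 (21.6%), against 4.04% of all 27025 promoters and 5.24% of the 15563 promoters of genes on the array. The ETS site CCGGAAG, which GABP binds, was in 17 (23.0%), against 9.12% of all promoters and 12.5% of those on the array. The YY1 site AAGATGG was in 9 (12.2%), against 6.48% of all promoters, and the ERR site AAGGTCA, of oestrogen-related receptors, in 7 (9.46%), against 4.66%. Of the 27 matched members lower at an unadjusted p under 0.05, 6 (22.2%) held the NRF1 core and 8 (29.6%) the ETS site, beside 10 (21.3%) and 9 of the other 47. A match is a run of letters and not a shown binding site, and 36 of the 74 held none of the 4 motifs in this window.

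Below are 4 promoters of members with low differences that hold at least 1 of the motifs, and that of Ndufs3, a core member near 0 that holds the ETS site in both orientations. They were chosen after the values were seen, and capitals mark the motifs. They are Cycs at chr6:50566520-50566819 on the minus strand, Uqcr11 at chr10:80406772-80407071 on the minus strand, Cox6a1 at chr5:115348909-115349208 on the minus strand, Ndufb2 at chr6:39592315-39592614 on the plus strand and Ndufs3 at chr2:90904672-90904971 on the minus strand, each printed 5′ to 3′ along the gene. In Cox6a1 the first run of capitals is the NRF1 core on both strands, overlapping.
Cycs: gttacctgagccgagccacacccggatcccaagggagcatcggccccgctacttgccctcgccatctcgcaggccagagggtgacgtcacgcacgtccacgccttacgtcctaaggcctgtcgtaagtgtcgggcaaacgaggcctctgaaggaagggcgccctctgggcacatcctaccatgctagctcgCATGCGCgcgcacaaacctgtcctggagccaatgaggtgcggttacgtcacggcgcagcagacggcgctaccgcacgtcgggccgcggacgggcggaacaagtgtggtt
Uqcr11: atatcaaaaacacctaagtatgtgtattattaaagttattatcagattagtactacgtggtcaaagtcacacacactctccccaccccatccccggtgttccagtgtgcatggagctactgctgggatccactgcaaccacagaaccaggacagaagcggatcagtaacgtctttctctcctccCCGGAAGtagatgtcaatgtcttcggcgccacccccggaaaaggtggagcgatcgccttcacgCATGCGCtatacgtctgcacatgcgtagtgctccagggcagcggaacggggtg
Cox6a1: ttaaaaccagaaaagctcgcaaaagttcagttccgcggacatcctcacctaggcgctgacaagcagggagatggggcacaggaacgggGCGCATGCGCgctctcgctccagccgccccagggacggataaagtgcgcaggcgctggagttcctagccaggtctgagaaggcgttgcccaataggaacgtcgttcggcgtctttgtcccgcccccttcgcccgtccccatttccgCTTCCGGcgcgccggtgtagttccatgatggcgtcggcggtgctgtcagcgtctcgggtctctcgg
Ndufb2: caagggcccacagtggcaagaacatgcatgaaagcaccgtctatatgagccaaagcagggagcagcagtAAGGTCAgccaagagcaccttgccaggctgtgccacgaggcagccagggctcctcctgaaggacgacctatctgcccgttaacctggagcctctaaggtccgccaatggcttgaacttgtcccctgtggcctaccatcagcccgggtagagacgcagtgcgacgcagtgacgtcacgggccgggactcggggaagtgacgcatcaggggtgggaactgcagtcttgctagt
Ndufs3: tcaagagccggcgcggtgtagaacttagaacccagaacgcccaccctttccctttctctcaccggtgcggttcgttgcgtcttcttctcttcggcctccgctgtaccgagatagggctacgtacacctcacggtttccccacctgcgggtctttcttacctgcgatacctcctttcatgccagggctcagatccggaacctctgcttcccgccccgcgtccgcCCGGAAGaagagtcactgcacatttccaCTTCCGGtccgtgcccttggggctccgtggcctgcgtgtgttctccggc
In Cycs the NRF1 core begins at position -59 from the start, in Uqcr11 at -3 behind an ETS site at -66, and in Ndufb2 the ERR site begins at -181.

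Cycs, the mobile carrier between complexes III and IV and, once released from mitochondria, a trigger of caspase activation, read 10.95, 10.89 and 10.96 in Dicer KO arrays, against 11.42, 11.45 and 11.44 in controls. All values of one group lay well apart from all values of the other, with means of 10.94 ± 0.038 in Dicer KO and 11.44 ± 0.014 in controls (SD, n = 3 each). On the log2 scale it fell by 0.50 ± 0.078 (SE), so that linear expression fell by 29.3%, with a limma adjusted p of 0.0483. A second probe set gave -0.48, while the remaining and much dimmer one gave 0.01, with values from 7.24 to 7.63. The call rested on single arrays: the adjusted p was 0.0488 without Dicer KO array 3, but 0.160 and 0.144 without Dicer KO arrays 1 and 2 and 0.173, 0.205 and 0.134 without control arrays 1, 2 and 3. The difference lay between -0.51 and -0.48 in these fits, with the mean of all 3 probe sets it was -0.32 (adjusted p = 0.125), and with sex as a covariate -0.51 (adjusted p = 0.148).

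Cyc1, the haem-bearing cytochrome c1 of complex III that hands electrons to cytochrome c, read 10.31, 10.33 and 10.29 in Dicer KO arrays, against 10.60, 10.62 and 10.64 in controls. The groups were narrow and far apart, but the difference of -0.31 ± 0.077 (SE) did not pass over all genes in limma (adjusted p = 0.127). Uqcr11, a small accessory subunit, read 8.92, 8.78 and 9.02 in Dicer KO arrays, against 9.44, 9.19 and 9.35 in controls, a difference of -0.43 ± 0.10. The other small subunits followed, with Uqcr10 at -0.33, Uqcrb at -0.30, Uqcrq at -0.26 and Uqcrh at -0.15. Thus all 5 lay below 0, as did 52.7% of all genes, and 3 of them at an unadjusted p under 0.05, as did 7.39% of all genes. Unlike Cyc1, the other 3 larger proteins of the complex stood near 0. Uqcrfs1, the Rieske iron-sulphur protein, was at 0.01 ± 0.079, and the large core proteins Uqcrc1 and Uqcrc2, which carry no redox group, were at -0.08 ± 0.090 and 0.06 ± 0.11. None of these 9 genes passed the threshold over all genes.

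In complex I, the core subunits of the matrix arm, which carry the flavin and the iron-sulphur clusters, were mostly near 0. Ndufv1, which binds NADH and the flavin, read 10.67, 10.86 and 10.38 in Dicer KO arrays, against 10.62, 10.62 and 10.67 in controls, so the controls lay inside the spread of the Dicer KO arrays. Its difference was 0.00 ± 0.12, with a 95% interval from -0.27 to 0.28. Ndufs1, the largest iron-sulphur subunit, was at -0.07 ± 0.095, Ndufs3 at 0.01 ± 0.12, Ndufs7 at 0.15 ± 0.098 and Ndufv2 at -0.13 ± 0.11. Ndufs8, another iron-sulphur subunit, was the exception at -0.24 ± 0.10, with 9.48, 9.37 and 9.16 in Dicer KO arrays against 9.60, 9.48 and 9.66 in controls. It was the 1 of these 6 core genes with an unadjusted p under 0.05, where 7.39% of all genes were lower, and none passed over all genes.

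The accessory subunits of complex I were lower more evenly, with 26 of 28 below 0 and a median of -0.20, against -0.01 over all genes. Of the 18 in the membrane arm all 18 were below 0, but for Ndufb9, Ndufb11 and Ndufc2 this rested on Dicer KO array 3. On Dicer KO arrays 1 and 2 Ndufb9 read 10.19 and 10.28, above its control mean of 10.14. Ndufb11 read 10.17 and 10.23 there, above 10.14, and Ndufc2 11.74 and 11.74, above 11.64. The second probe set of Ndufb11 was at 0.03. Ndufb2 read 7.84, 7.91 and 7.98 in Dicer KO arrays, against 8.32, 8.34 and 8.28 in controls, and its difference of -0.40 ± 0.082 (SE) had a limma adjusted p of 0.0834. Ndufc1 read 9.89, 9.66 and 9.76 in Dicer KO arrays, against 10.28, 10.09 and 10.10 in controls, a difference of -0.39 ± 0.098. Both of its probe sets were below 0, at -0.39 and -0.29. In the matrix arm Ndufa12 was at -0.30 ± 0.11, and Ndufa11, in the membrane arm, at -0.28 ± 0.087. The accessory subunits above 0 were Ndufa6 at 0.14 and Ndufv3 at 0.15.

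The lowest complex I value was also the least even. Ndufs5, an accessory subunit on the intermembrane side, was at -0.61 ± 0.27, but Dicer KO array 1 read 9.42, above the 8.93 of control array 1, so the groups overlapped. The remaining values of Ndufs5 were 8.53 and 8.47 in Dicer KO arrays 2 and 3, against 9.68 and 9.65 in control arrays 2 and 3. Ndufa4, named for complex I but known as a subunit of complex IV, read 12.48, 12.52 and 12.36 in Dicer KO arrays, against 12.49, 12.33 and 12.55 in controls, and its difference was 0.00 ± 0.094 with a 95% interval from -0.21 to 0.21. Of the 7 assembly factors with Ndufaf names, 6 were below 0, where 52.7% of all genes were. Ndufaf2 at -0.44 ± 0.10, Ndufaf3 at -0.33 ± 0.086 and Ndufaf1 at -0.33 ± 0.12 had an unadjusted p under 0.05, where 7.39% of all genes were lower. None passed over all genes.

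In complex II, which is also the succinate dehydrogenase of the citric acid cycle, none of the 4 genes reached an unadjusted p under 0.05. Sdha, the flavoprotein, read 12.27, 12.25 and 11.96 in Dicer KO arrays, against 12.04, 12.13 and 12.16 in controls, so the groups overlapped (0.05 ± 0.10). The iron-sulphur subunit Sdhb read 10.21, 10.19 and 10.13 in Dicer KO arrays, against 10.31, 10.23 and 10.45 in controls. Its groups did not overlap, with a difference of -0.15 ± 0.089. The membrane anchors Sdhc and Sdhd, which hold the haem, were at -0.12 ± 0.11 and -0.26 ± 0.13. Single arrays moved both: with each array left out in turn, Sdhc lay between -0.22 (without control array 2) and -0.05 (without control array 3), and Sdhd between -0.36 (without Dicer KO array 2) and -0.12 (without Dicer KO array 3).

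**Figure D3:**
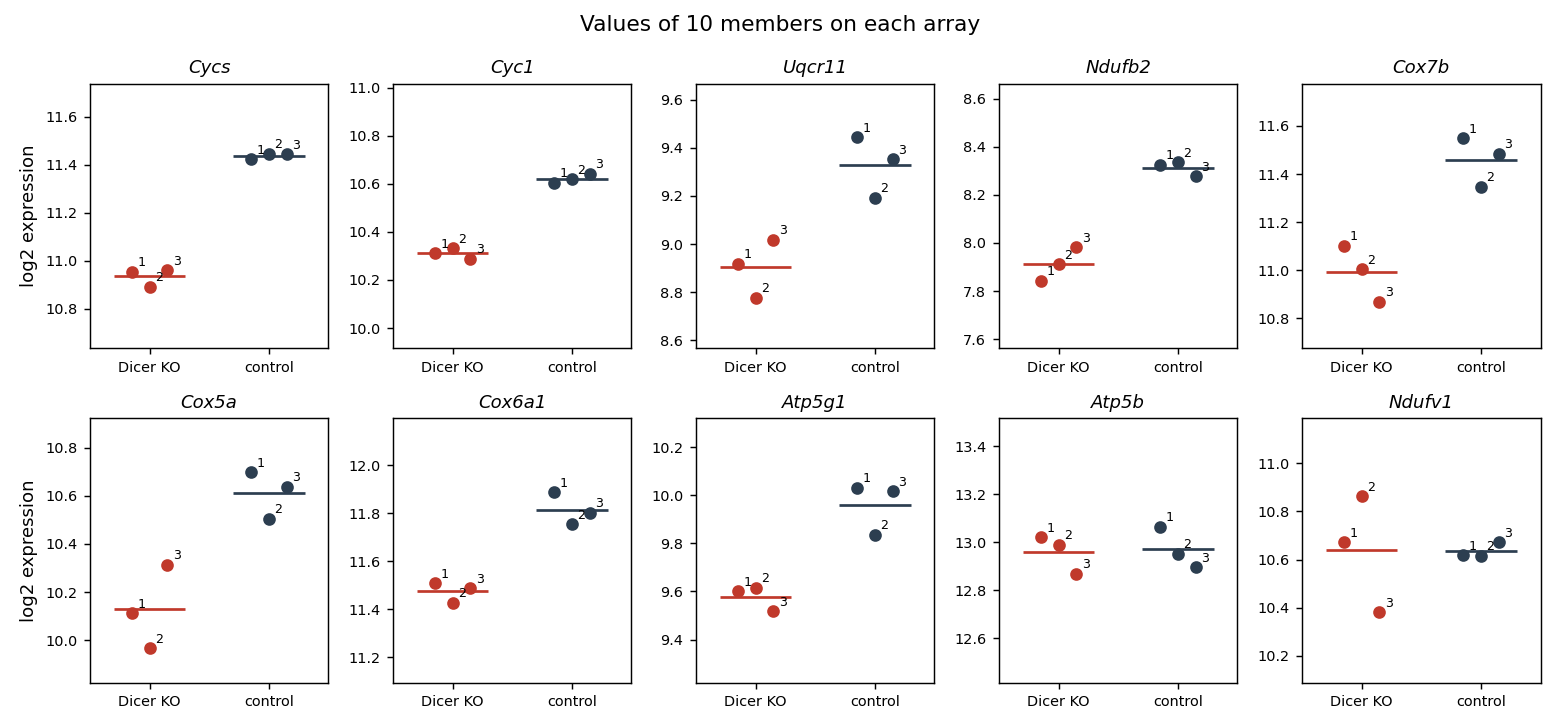
Log2 expression of 10 members on each array (points numbered by array, lines at group means, Dicer KO left and control right; each panel spans the same range of log2 units around its own mean). The first 8 genes have groups that do not overlap, and Atp5b and Ndufv1 have overlapping groups; the panels were chosen after the values were seen.

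The nuclear subunits of complex IV surround a catalytic core that mitochondrial DNA encodes. Cox5a, a subunit on the matrix side, read 10.11, 9.97 and 10.31 in Dicer KO arrays, against 10.70, 10.50 and 10.64 in controls, a difference of -0.48 ± 0.11 (SE; limma adjusted p = 0.102). Cox7b, a membrane subunit needed for assembly, read 11.10, 11.00 and 10.87 in Dicer KO arrays, against 11.55, 11.35 and 11.48 in controls, a difference of -0.47 ± 0.097 (limma adjusted p = 0.0863). Its second probe set gave -0.34. Cox6a1 read 11.51, 11.43 and 11.49 in Dicer KO arrays, against 11.89, 11.75 and 11.80 in controls, a difference of -0.34 ± 0.082. Groups of these 3 genes did not overlap, and none passed over all genes.

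Cox4i1, the largest nuclear subunit of complex IV, did not share this pattern. It read 11.53, 11.55 and 11.53 in Dicer KO arrays, against 11.52, 11.51 and 11.43 in controls, a difference of 0.05 ± 0.078 with a 95% interval from -0.13 to 0.23. Every Dicer KO array stood slightly above every control array. Of the 9 ubiquitous subunits the other 8 lay below 0, the remaining ones being Cox6b1 at -0.28, Cox8a at -0.21, Cox7a2 and Cox6c at -0.19 and Cox5b at -0.15. Cox7a2 was set by Dicer KO array 3, with 10.38, 10.42 and 9.57 in Dicer KO arrays against 10.38, 10.40 and 10.17 in controls, and its difference was 0.08 without that array.

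Tissue isoforms of complex IV subunits, which replace the ubiquitous ones in other tissues or conditions, had a median of 0.01 over 7 genes, beside -0.21 over the 9 ubiquitous ones. Cox6a2, the heart and muscle isoform also found in some neurons, was at -0.04 ± 0.11 where Cox6a1 was at -0.34. Cox6b2, a testis isoform, was at 0.01 ± 0.11, Cox8b at 0.02 ± 0.12 and Cox8c at 0.08 ± 0.088. Cox4i2, which is induced by low oxygen in some tissues, was at 0.10 ± 0.083 with groups that did not overlap, and Cox7b2 at -0.19 ± 0.13. Cox7a1, the heart and muscle isoform, was the exception at -0.31 ± 0.093, with 7.05, 6.88 and 7.11 in Dicer KO arrays against 7.24, 7.38 and 7.35 in controls. All of the tissue isoforms but Cox6a2, with a mean of 8.36 over all arrays, were dim, Cox7b2 reading between 5.06 and 5.68. Their means ran from 5.39 for Cox7b2 to 7.17 for Cox7a1, where array medians were 7.13 to 7.22. Means of the ubiquitous subunits ran from 10.22 to 12.13, so the 2 medians compare genes of unlike brightness. Cox7a2l, studied as a factor of supercomplexes that join complexes III and IV, was at 0.14 ± 0.087. The differences between isoforms were not tested.

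**Figure D4:**
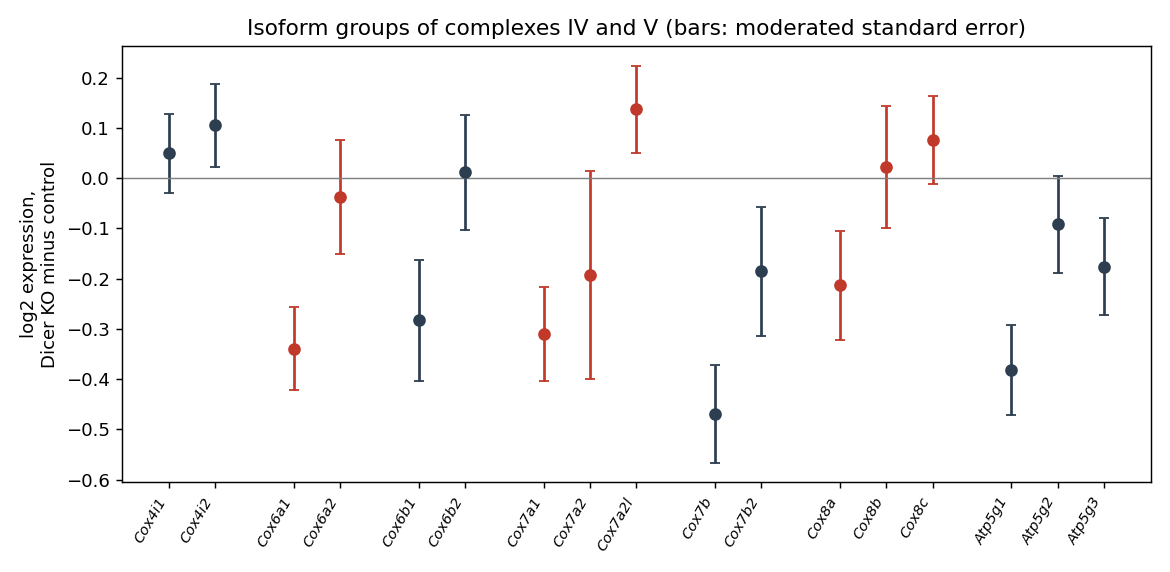
Difference in log2 expression, Dicer KO minus control, of the isoform groups of complex IV and of the 3 genes of the c ring of complex V, with the moderated standard error as bars and colours alternating between groups. Cox6a1, Cox6b1, Cox7a1, Cox7b, Cox8a and Atp5g1 lie lowest in their groups, and both Cox4i genes lie above 0.

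In complex V, the subunits of the catalytic head stood at -0.01 and 0.11, and those of the other parts between -0.41 and 0.01. Atp5b, the catalytic beta subunit, read 13.02, 12.99 and 12.87 in Dicer KO arrays, against 13.06, 12.95 and 12.90 in controls, a difference of -0.01 ± 0.089 with a 95% interval from -0.21 to 0.19. Atp5a1, the alpha subunit, read 12.90, 12.95 and 12.84 in Dicer KO arrays, against 12.79, 12.78 and 12.81 in controls, so every Dicer KO array was above every control (0.11 ± 0.079). Atp5c1, the gamma subunit that turns inside the head, was at 0.01 ± 0.084. Beside it in the central stalk, the delta subunit Atp5d was at -0.35 ± 0.11 and the epsilon subunit Atp5e at -0.41 ± 0.15. Neither passed over all genes, and groups of both did not overlap.

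Of the 5 small subunits in the membrane part of complex V all 5 were below 0, with a median of -0.36. Atp5j2, the f subunit, read 10.97, 10.81 and 10.76 in Dicer KO arrays, against 11.31, 11.04 and 11.35 in controls, a difference of -0.39 ± 0.11. Atp5mpl was at -0.36 ± 0.12 and Atp5k, the e subunit, at -0.36 ± 0.14, while Atp5l, the g subunit, was at -0.15 and Atp5md at -0.06. The peripheral stalk, which stops the head from turning, had a median of -0.10 over 4 genes, from -0.22 for Atp5pb to -0.03 for Atp5h.

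The c ring is the rotor, and Atp5g1, Atp5g2 and Atp5g3 encode the same mature c subunit with different import sequences. Atp5g1 read 9.60, 9.62 and 9.52 in Dicer KO arrays, against 10.03, 9.84 and 10.02 in controls, and the groups did not overlap. Its difference was -0.38 ± 0.089 (limma adjusted p = 0.111), and its second probe set gave -0.32. Atp5g3 was at -0.18 ± 0.096 and Atp5g2 at -0.09 ± 0.096, with overlapping groups for both. The differences between the 3 genes were not tested.

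Taking roles across complexes, the 12 core subunits of complexes I, II, III and V had a median difference of 0.00, with 6 of 12 below 0. The other 54 genes named for these complexes had a median of -0.19, with 50 of 54 below 0. This division was drawn up with the values known and has no test. It held on Dicer KO arrays 1 and 2, where the core subunits had array medians of 0.04 and 0.02 and the other subunits -0.17 and -0.17. On Dicer KO array 3 the medians were -0.17 for the core and -0.18 for the other subunits, so the division was not seen there. In control arrays 1 to 3 they were -0.01, -0.02 and 0.03 for the core and 0.04, -0.09 and 0.04 for the others.

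Dicer KO array 3 was low for a further set of members. In 11 of 91 (12.1%) it lay over 0.3 below both other Dicer KO arrays, against 4.58% of all genes, and in 6 (6.59%) over 0.3 above them, against 6.25%. The 11 included Ndufs3, Ndufv2, Ndufs4, Ndufa9, Ndufc2, Sdhd and Cox7a2. Ndufa9, for example, read 10.67, 10.83 and 10.16 in Dicer KO arrays, against 10.75, 10.82 and 10.71 in controls. The 6 above were Atp5k, Cox8b, Ndufa1, Ndufa2, Ndufb3 and Ndufs6. The gap of 0.3 was chosen after the values were seen.

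Many respiratory genes have processed copies elsewhere in the genome, which a probe set may read as well. Of the 91 members 18 had several probe sets, and in 15 of these all probe sets had the same sign, with a median spread of 0.05 between the lowest and the highest. The exceptions were Cycs, Ndufb11 and Atp5h, the last with differences between -0.03 and 0.02. The 73 members with a single probe set had a median of -0.18. Of these, 22 (30.1%, against 7.39% of all genes) were lower at an unadjusted p under 0.05. Gene span showed a weak rank correlation with the difference (Spearman rho 0.19 over the 91 members and 0.04 over 19856 genes); this is across genes, which share arrays and are not independent.

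**Figure D5:**
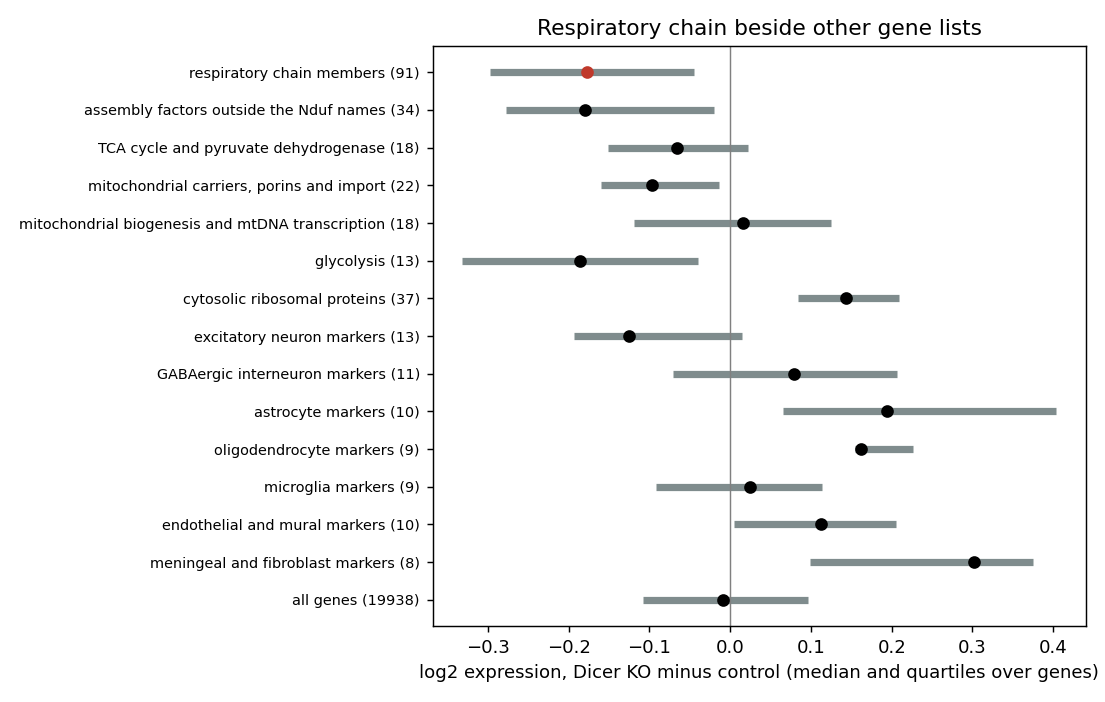
Median (point) and quartiles (bar) over genes of the difference in log2 expression, Dicer KO minus control, for the 91 respiratory chain members (red), other lists of genes and all genes, with the number of measured genes in brackets. Respiratory chain members, assembly factors and glycolysis genes lie lowest among the lists plotted, which leave out olfactory bulb markers (-0.39) and choroid plexus markers (0.01), and cytosolic ribosomal proteins, astrocyte and meningeal markers lie above 0.

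Other genes of energy metabolism were read from lists. Among assembly factors without Ndufaf names, 26 of 34 were below 0 with a median of -0.18, and 13 were lower (38.2%) and 0 higher at an unadjusted p under 0.05, beside 7.39% and 7.01% of all genes. Timmdc1, which helps to build the membrane arm of complex I, was at -0.57 ± 0.12, and Sco1, a copper chaperone of complex IV, at -0.32 ± 0.080. Glycolysis genes had a median of -0.19 over 13 genes, with 6 lower (46.2%) and 0 higher, the phosphofructokinase gene Pfkl at -0.46 ± 0.092 and Ldha, a lactate dehydrogenase, at -0.46 ± 0.11 among them. Mitochondrial carriers, porins and import genes had a median of -0.10 over 22 genes, with 3 lower (13.6%) and 0 higher. Slc25a22, a glutamate carrier, was at -0.48 ± 0.079 and Tomm40, the import pore, at -0.30 ± 0.091.

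The citric acid cycle with pyruvate dehydrogenase was closer to 0, with a median of -0.07 over 18 genes and 2 lower (11.1%) and 2 higher at an unadjusted p under 0.05, which is near the shares over all genes. Idh2, an isocitrate dehydrogenase, was at 0.38 ± 0.081 and Sucla2, a succinyl-CoA ligase subunit, at -0.36 ± 0.12. Genes of mitochondrial biogenesis and mtDNA transcription had a median of 0.02 over 18 genes, with 1 lower and 1 higher: the nuclear receptor gene Esrra at -0.24 ± 0.090 and Ssbp1, which binds mitochondrial DNA, at 0.23 ± 0.10. No gene of these lists passed an adjusted p of 0.05.

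Cytosolic ribosomal protein genes lay the other way. Their median was 0.14 over 37 genes, with 10 higher and 0 lower at an unadjusted p under 0.05, beside 7.01% and 7.39% of all genes, and array medians of 0.11, 0.12 and 0.20 in Dicer KO arrays against 0.02, -0.03 and 0.02 in controls. Rpl22 was at 0.35 ± 0.095 and Rps3 at 0.30 ± 0.086, and none passed over all genes.

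Markers of the cell types a cortical dissection can hold were read beside these. Excitatory neuron markers had a median of -0.13 over 13 genes, with 9 below 0 and array medians of -0.09, 0.00 and -0.18 in Dicer KO arrays against -0.04, 0.04 and 0.01 in controls. Of these, Nrgn (neurogranin) at -0.60 ± 0.088 passed over all genes (limma adjusted p = 0.0413), and Lamp5 was the lowest at -1.19 ± 0.20. The list also held 4 genes above 0, the highest at 0.15. GABAergic interneuron markers had a median of 0.08 over 11 genes, with 5 of the 11 below 0. Erbb4 and Vip were both at 0.32, while Npy was at -0.32 and Kcnc1 at -0.21. Astrocyte markers had a median of 0.19 over 10 genes, with 2 of the 10 below 0, the lowest at -0.21. Gjb6 was at 0.48 and Gja1 at 0.44, both of them gap junction genes. Array medians of this list were 0.09, 0.10 and 0.51 in Dicer KO arrays against -0.07, 0.02 and 0.09 in controls.

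Oligodendrocyte markers had a median of 0.16 over 9 genes, with 2 below 0, the lowest at -0.07, and Opalin at 0.37 and Mal at 0.26. Their array medians ran from -0.13 to 0.40 in Dicer KO arrays against -0.19 to 0.40 in control arrays. Microglia markers had a median of 0.03 over 9 genes, with Tmem119 at -0.29 and Tyrobp at 0.45, and array medians from -0.34 to 0.33 in Dicer KO arrays against -0.17 to 0.24 in control arrays. Endothelial and mural markers had a median of 0.11 over 10 genes, with 3 below 0, the lowest at -0.16, and Pdgfrb at 0.36 and Pecam1 at 0.26. Their array medians overlapped, with 0.03, 0.14 and 0.17 in Dicer KO arrays against -0.03, 0.13 and -0.02 in control arrays. Meningeal and fibroblast markers had a median of 0.30 over 8 genes, with 0 below 0, Igf2 at 0.49 and Ptgds at 0.45. Array medians of the meningeal list ran from 0.13 to 0.38 in Dicer KO arrays against -0.04 to 0.05 in control arrays, without overlap. Choroid plexus markers had a median of 0.01 over 7 genes, with Ttr at 1.28 ± 0.53 and Aqp1 at -0.15. Olfactory bulb markers had a median of -0.39 over 12 genes, with Meis2 at -0.50 and Gng13 at -0.43; control array 1 stood at 0.64, against -0.45 and -0.27 in control arrays 2 and 3. The part of these cell types in the lower respiratory chain values was not tested.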

How the data were processed

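Total RNA of adult forebrain cortex (200 ng per animal, miRVana PARIS kit) was labelled with an Affymetrix whole-transcript kit, per the labels' protocols. The deposited table holds log2 values, 1 per probe set and array. The submitters' processing notes list RMA (background correction, quantile normalization and probe summary) and limma; no versions are listed there. Such summaries compress differences of dim transcripts, and no detection calls were applied. The number of arrays limits the precision.

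Of 35557 rows, 21789 have 1 gene symbol in the platform's probe table, 1621 have several and 12147 have none listed; the last 2 kinds were left out. Through their gene identifier 21698 were given the symbol of a mouse gene table of assembly GRCm38.p6, and 91 kept their own. Highest-mean probe sets left 19938 genes. R 4.3.3 with limma 3.58.1 fitted group as the single factor by lmFit and eBayes (prior degrees of freedom 4.89). Two-sided p-values were adjusted by Benjamini-Hochberg over the 19938 genes, and an adjusted p under 0.05 counted as passing. Arrays are called biological replicates in the labels. With 3 arrays a group, exact permutation reaches no p under 0.1, so no such test was run. No pair of arrays shared all values: the most alike pair differed in 35523 rows, and pairs correlated at 0.975 to 0.991.

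The members, the 16 lists and the rule for named genes were chosen with earlier results of these data known. The rule names members past the threshold, the 4 subunits of smallest p in complexes I, III, IV and V, all of complex II, Cycs, Cyc1, core subunits, isoform groups, Ndufa4, 3 assembly factors and up to 2 genes per list; other members named in the report were added after their values were seen. The fit was tested on simulated data in 3 runs. A fall of 1 on the log2 scale was called in 82% of the changed genes, and a fall of 0.5 in 32.3%. Alternatives were a replicate block by array number, leaving out single arrays, median centring, a second quantile normalization and dim genes left out. Others were averaged probe sets, a trended and robust prior, array weights, and sex read from Y-linked Eif2s3y alone. Further ones were Ndufa4 with complex IV and assembly factors left out, and an adjusted p under 0.1. Leaving out Dicer KO array 3 with control array 1, and members with 1 probe set alone, were added after the data were seen. Some genes of the lists were not analysed here.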

Additional observations from a re-analysis of the deposited data

How the results depend on the processing

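The count of members past the threshold, 1, was 0 to 1 with single arrays left out. It was 0 with averaged probe sets, with sex as covariate, without Dicer KO array 3 and control array 1, and among members with 1 probe set. With dim genes left out it was 2 of 83 members, where 178 of all 9969 genes were called. At an adjusted p under 0.1 it was 3, where 320 genes were called. With array weights it was 14, where all genes called numbered 1116 instead of 56. All genes called were 0 in limma without any 1 of the arrays other than Dicer KO array 3 and with sex as covariate, and members lower at an unadjusted p under 0.05 numbered 21 to 27 and 24 there, against 5.21% to 6.82% and 5.65% of all genes. With the array number as a replicate block 1 member and 215 genes passed. Deviations from the group means correlated at 0.0895, 0.166 and 0.294 between same-numbered arrays. Arrays of different numbers were not compared, so these values cannot tell whether the numbers pair the animals. The median over the members was -0.20 to -0.13 with single arrays left out, -0.13 with sex as covariate and -0.11 without Dicer KO array 3 and control array 1. For complex III the median was -0.28 to -0.19 with single arrays left out, -0.21 with array weights, -0.14 without those 2 arrays and -0.15 over members with 1 probe set. For complex IV it was -0.19 to -0.12, -0.13 with sex as covariate and -0.070 without those 2 arrays, and for complex I -0.13 with array weights and -0.13 without those 2 arrays. The cause of these moves was not tested. No median of a complex changed sign under the alternatives run, and 0 members were higher at an unadjusted p under 0.05 in any of them.

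Members near 0 changed sign. With single arrays left out Sdha ranged from -0.0010 to 0.15, Ndufs3 from -0.080 to 0.14, Ndufv1 from -0.11 to 0.13, Uqcrfs1 from -0.014 to 0.038, Cox6a2 from -0.12 to 0.067, Atp5b from -0.049 to 0.036, Cox6b2 from -0.093 to 0.080, Cox7a2 from -0.34 to 0.084, Cox8b from -0.096 to 0.097 and Ndufa4 from -0.064 to 0.045. With array weights Atp5b was at 0.024, Cox8b at -0.066 and Ndufa4 at 0.041, and with sex as covariate Atp5b was at 0.0013, Cox6a2 at 0.0053 and Ndufa4 at 0.048. Signal over background is unknown, which limits what the dim tissue isoforms show.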

Other observations

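Probe sets that list several genes were left out of the members and are given as values only. The row shared by Ndufs5 and its pseudogene read 8.93, 8.67 and 8.38 in Dicer KO arrays, against 9.13, 9.33 and 9.31 in controls, a difference of -0.60 ± 0.15 (SE), without the overlap seen in the probe set of Ndufs5 alone. For Cox7c, a small subunit of complex IV, 3 rows shared with Gm12338 had differences between -0.11 and -0.099. For Ndufb4, an accessory subunit of complex I, 2 rows shared with Ndufb4b were at -0.17 ± 0.11 and -0.18 ± 0.12.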
